A study of Mus musculus with 12 samples.

Results

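The genes of bile acid synthesis and its control comprised 9 genes, taken by symbol from the deposited expression table, which held 25947 entries. They were 7 enzymes (Cyp7a1, Cyp8b1, Cyp27a1, Cyp7b1, Hsd3b7, Akr1d1 and Baat) and 2 nuclear receptors (Nr0b2 and Nr1h4). All 9 were found, and all 9 passed the filter of at least 1 TPM (a share of the sample's transcripts that accounts for transcript length) in at least 3 of the 12 samples. Poly(A) RNA of liver from wild-type mice was sequenced in 4 groups of 3 samples. HFD-IRI livers came from mice on a high-fat diet (HFD) for 4 months, as a model of steatosis, followed by ischemia-reperfusion injury (IRI). HFD-Sham livers came from the same diet and a sham operation. ND-IRI and ND-Sham livers came from mice on a normal diet (ND) with IRI or the sham operation. In IRI the left and middle branches of the hepatic pedicle were tied for 1 h, and the tissue was taken after 6 h of reperfusion, so the injury was partial and early.

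Bile acids are made from cholesterol in the hepatocyte, are secreted into bile and return from the ileum. The classic branch starts with Cyp7a1, the rate-limiting enzyme, and Cyp8b1 steers its products towards cholic acid. The alternative branch starts with the mitochondrial enzyme Cyp27a1, whose oxysterol products are hydroxylated by Cyp7b1. Hsd3b7 and Akr1d1 modify the sterol ring for both branches, and Baat joins the finished acid to an amino acid. Nr1h4 encodes FXR, the receptor that senses bile acids, and Nr0b2 encodes SHP, a co-repressor that FXR induces and that lowers the transcription of Cyp7a1 and Cyp8b1.

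Sequencing depth could not be derived from TPM, so no counting interval was available. Between 18935 and 20425 genes per sample were above 0, and 44.4% to 49.3% of each total came from its 50 most abundant genes. The labels do not state whether samples came from separate animals, and the p-values therefore reflect how these samples vary, which may include technical variation alone. The first samples of ND-IRI and ND-Sham stood apart from their groups on the third principal component, which held 8.13% of the variance. The first ND-Sham sample also had 11.6 TPM of the adipocyte gene Adipoq, against at most 0.23 TPM in the others. The members' calls, and the list and marker counts that moved most, are therefore also given without these 2 samples.

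The promoter windows are shown for 4 of the 5 members that were called lower after IRI on both diets, to set their sequence beside their shared direction. RefSeq windows of build GRCm38.p6, from 250 bases before to 50 bases after the annotated start, were matched by symbol for 6 of the 9 members, and not for Cyp7a1, the fifth of these, Cyp7b1 or Baat. The values were made with build GRCm39, and nothing was joined by coordinate. Capitals mark exact matches, on either strand, to the nuclear receptor core AGGTCA, which is read as TGACCT from the opposite strand, to the LRH-1 site CAAGGTCA, which contains that core, the HNF4 site CAAAGTCCA and the E-box CACGTG. The windows are chr9:121916256-121916555 on the minus strand for Cyp8b1, chr1:74713285-74713584 on the plus strand for Cyp27a1, chr6:37529923-37530222 on the plus strand for Akr1d1 and chr10:89506609-89506908 on the minus strand for Nr1h4.
Cyp8b1: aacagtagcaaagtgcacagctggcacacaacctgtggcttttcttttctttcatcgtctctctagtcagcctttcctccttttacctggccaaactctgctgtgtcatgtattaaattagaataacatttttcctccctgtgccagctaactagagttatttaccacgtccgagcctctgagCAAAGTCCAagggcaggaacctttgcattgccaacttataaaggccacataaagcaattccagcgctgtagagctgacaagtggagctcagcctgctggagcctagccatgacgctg
Cyp27a1: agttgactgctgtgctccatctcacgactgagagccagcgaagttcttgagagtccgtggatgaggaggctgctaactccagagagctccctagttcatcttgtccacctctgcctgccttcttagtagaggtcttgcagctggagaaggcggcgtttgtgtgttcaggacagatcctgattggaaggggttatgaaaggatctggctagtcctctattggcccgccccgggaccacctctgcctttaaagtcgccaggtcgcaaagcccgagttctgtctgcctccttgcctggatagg
Akr1d1: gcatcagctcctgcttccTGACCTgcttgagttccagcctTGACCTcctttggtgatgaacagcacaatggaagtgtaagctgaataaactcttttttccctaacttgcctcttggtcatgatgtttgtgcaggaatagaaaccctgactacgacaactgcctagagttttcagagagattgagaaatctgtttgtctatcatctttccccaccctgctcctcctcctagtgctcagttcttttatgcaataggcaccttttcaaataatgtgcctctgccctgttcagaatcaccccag
Nr1h4: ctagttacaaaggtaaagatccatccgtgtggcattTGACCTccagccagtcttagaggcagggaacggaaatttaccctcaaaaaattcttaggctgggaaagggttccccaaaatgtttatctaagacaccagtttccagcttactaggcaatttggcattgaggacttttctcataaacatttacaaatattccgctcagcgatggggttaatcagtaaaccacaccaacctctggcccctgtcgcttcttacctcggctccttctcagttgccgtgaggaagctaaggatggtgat
Cyp8b1 held the HNF4 letters at position -67 from the start, as did 0.479% of 32544 promoters in that table. Akr1d1 held the nuclear receptor core at -232 and -210 and Nr1h4 held it at -214, as did 16.2% of promoters. Cyp27a1 matched none of the motifs. Of the members not shown, Hsd3b7 matched none, and Nr0b2 held the E-box at -195, as did 7.17% of promoters. The LRH-1 letters, which 1.53% of promoters held, were in none of the 6 windows.

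On the normal diet, IRI lowered Cyp7a1, Cyp8b1, Cyp27a1, Akr1d1 and Nr1h4. The limma model covered 13364 genes on log2(TPM + 1) with two-sided tests, and calls were made at a Benjamini-Hochberg adjusted p under 0.05. This scale, used for the log2 fold changes, understates changes of low genes. In ND-IRI against ND-Sham, 5 of the 9 members were called lower, where 16.6% of all tested genes were, and 0 were called higher, where 30.2% of tested genes were. The members' median log2 fold change was -0.67, against 0.16 over all tested genes. That centre depended on the scaling, being -0.01 after median-ratio scaling and -0.05 after quantile normalization. The calls over all genes were 4035 higher and 2213 lower, against 3437 and 3384 after median-ratio scaling and 3180 and 3860 after quantile normalization. The 5 member calls held under both scalings and without the 2 samples that stood apart.

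On the high-fat diet 8 of the 9 members, all but Cyp7b1, were called lower in HFD-IRI against HFD-Sham, where 21.9% of tested genes were. Without the second HFD-IRI sample the count was 5, and the calls on Cyp27a1, Hsd3b7 and Nr0b2 were each lost when any of several single samples was left out. None was called higher, where 24.0% of tested genes were. The members' median log2 fold change was -0.86, against 0.01 over all tested genes. In bulk tissue, fewer cells of a type and less RNA per cell cannot be told apart.

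**Figure D1:**
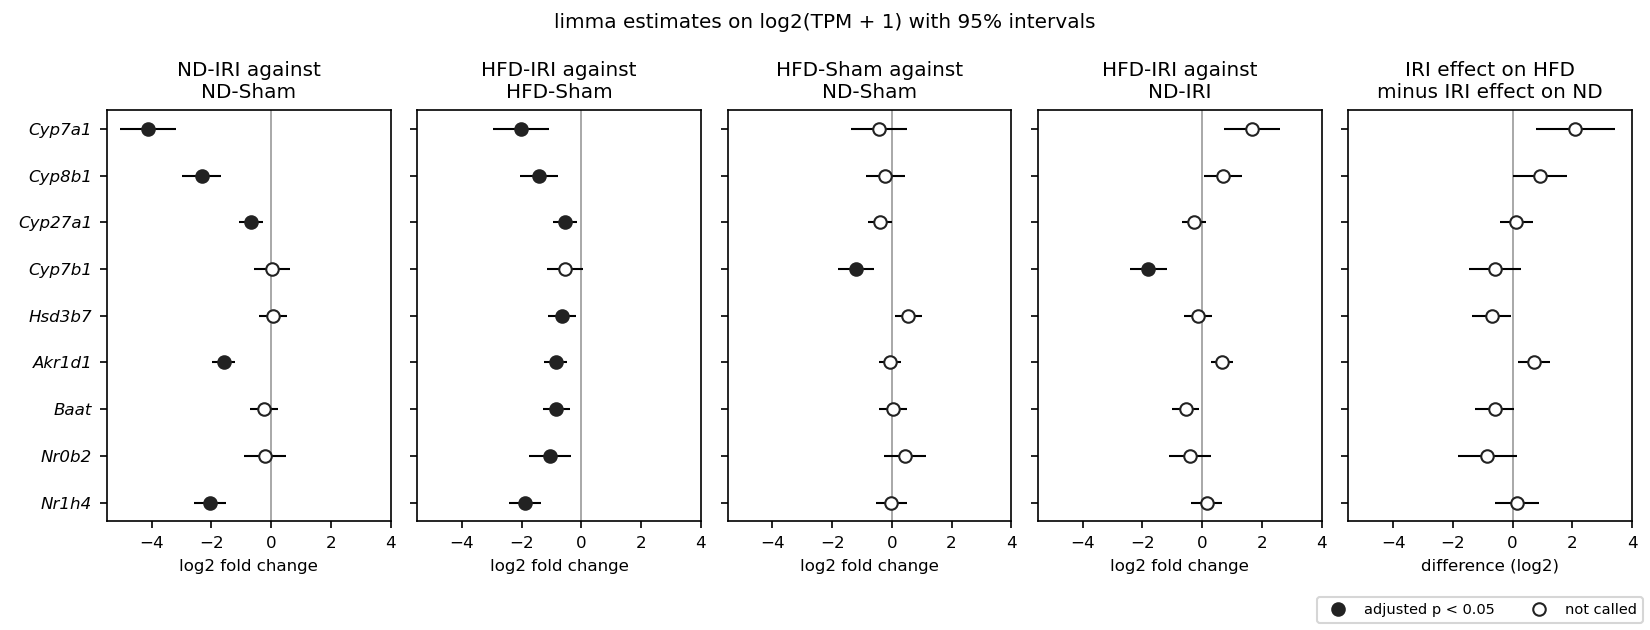
limma log2 fold changes of the 9 members (points) with 95% intervals (lines, not adjusted) in the 4 comparisons of groups, and the difference between the IRI effects on the right; filled points had an adjusted p under 0.05. The filled points lie left of 0 in both IRI panels, 5 on ND and 8 on HFD, and Cyp7b1 alone is filled in the 2 diet panels.

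Cyp7a1 had the largest log2 fold change of the members after IRI on both diets, though on HFD that of Nr1h4 was close. With samples left out, the HFD estimates ranged from -2.43 to -1.55 for Cyp7a1 and from -2.12 to -1.60 for Nr1h4. Cyp7a1 was at 26.8, 8.47 and 16.03 TPM in HFD-IRI livers, against 125, 61.2 and 36.7 TPM in HFD-Sham livers. It was at 4.15, 2.99 and 5.86 TPM in ND-IRI livers, against 103, 93.8 and 74.6 TPM in ND-Sham livers. The IRI and sham samples of each diet did not overlap, and HFD-Sham spread more widely than the other groups. The log2 fold change was -2.02 (SE 0.429, adjusted p = 0.00263) on HFD and -4.12 (SE 0.429, adjusted p = 2.18e-05) on ND. In the order of levels, ND-Sham and HFD-Sham overlapped at the top, HFD-IRI lay below both, and ND-IRI lay below HFD-IRI. The last step, HFD-IRI against ND-IRI, had a log2 fold change of 1.66 with an adjusted p of 0.0543 and was not called.

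**Figure D2:**
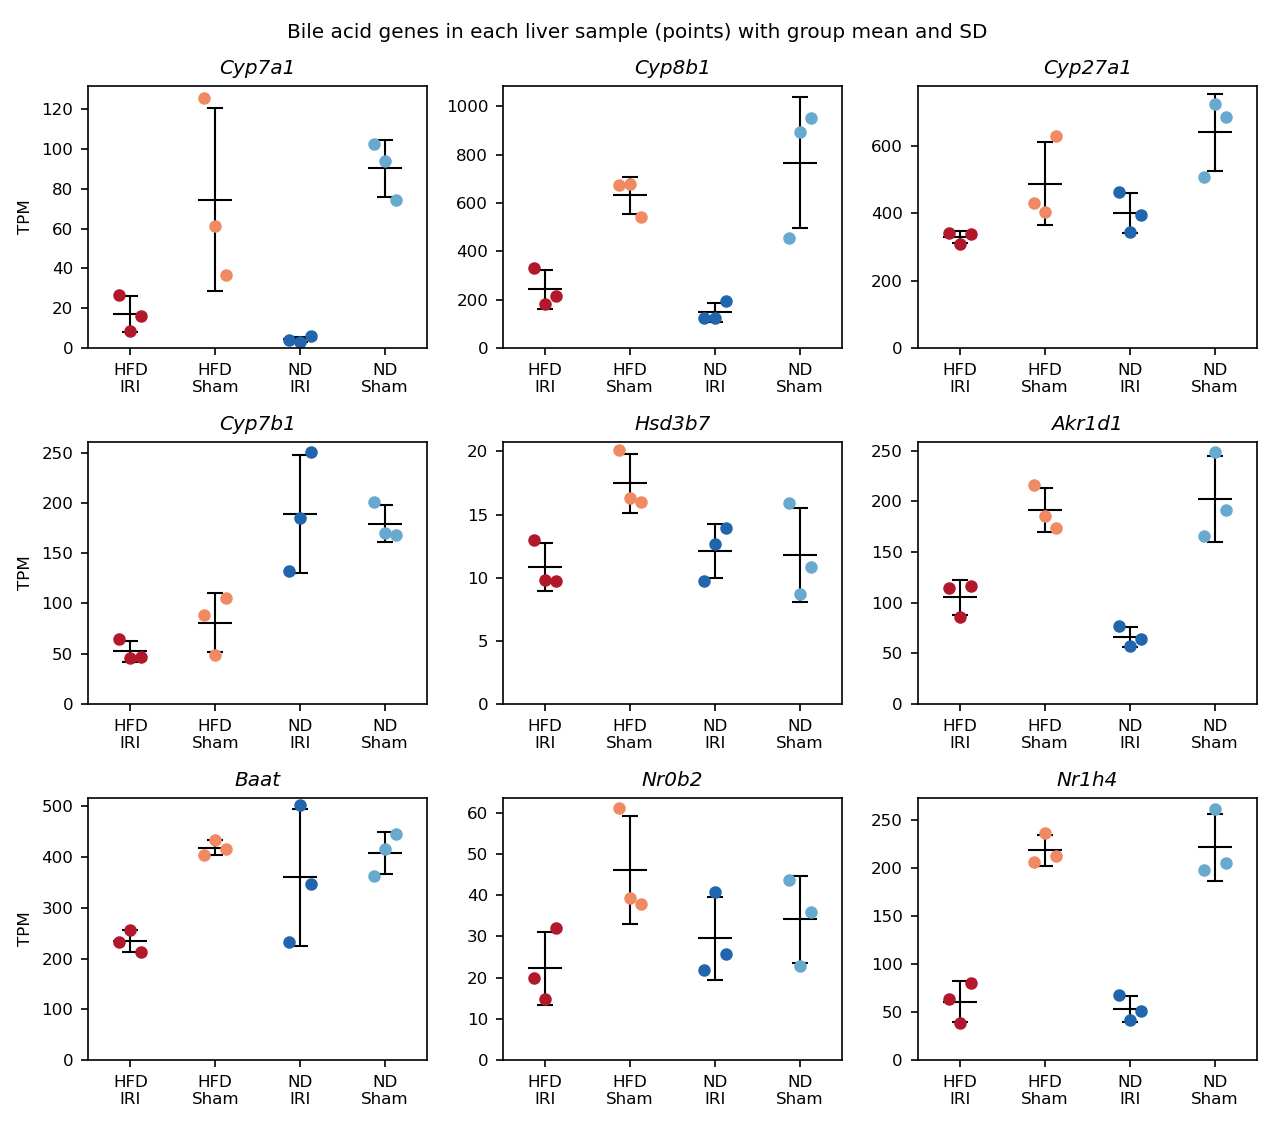
TPM of each member in each sample (points), with the group mean and SD (bars, n = 3); each panel has its own linear axis from 0. Cyp7a1 lies between 2.99 and 5.86 TPM in ND-IRI, below the other 9 samples, and Cyp7b1 separates by diet rather than by operation.

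Cyp8b1, the enzyme of the cholic acid step, fell with Cyp7a1 on both diets, from a far higher level. Its values were 333, 181 and 215 TPM in HFD-IRI livers, against 675, 677 and 541 TPM in HFD-Sham livers. They were 126, 123 and 194 TPM in ND-IRI livers, against 455, 893 and 950 TPM in ND-Sham livers. No IRI sample reached a sham sample of its diet, and the diets overlapped within each operation. limma gave a log2 fold change of -1.42 (SE 0.294, adjusted p = 0.00226) on HFD and -2.33 (SE 0.294, adjusted p = 7.77e-05) on ND. Of the 6 members with a promoter window, Cyp8b1 alone held the HNF4 letters.

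The balance between these enzymes of the classic branch is given as a ratio of TPM, without a test. The ratio of Cyp8b1 to Cyp7a1 averaged 15.7 ± 4.87 in HFD-IRI and 10.4 ± 4.71 in HFD-Sham livers (SD, n = 3 each), and these groups overlapped. It averaged 34.8 ± 5.52 in ND-IRI and 8.90 ± 4.19 in ND-Sham livers (SD, n = 3 each), where the lowest ND-IRI sample, at 30.3, was above the highest ND-Sham sample, at 12.7. The ND-IRI samples were also above the HFD-IRI samples, of which the highest was 21.3.

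Cyp27a1, which opens the alternative branch and also acts on the side chain in the classic branch, fell less. It was at 342, 310 and 338 TPM in HFD-IRI livers, against 431, 404 and 630 TPM in HFD-Sham livers. It was at 464, 344 and 395 TPM in ND-IRI livers, against 509, 726 and 687 TPM in ND-Sham livers. The samples of each pair did not overlap, though the gap was narrow on both diets. On the log2 scale the change was -0.54 (SE 0.184, adjusted p = 0.0313) on HFD and -0.67 (SE 0.184, adjusted p = 0.0108) on ND. The HFD call was lost without each of the HFD-IRI samples or without the third HFD-Sham sample, with an adjusted p of up to 0.133, and with no filter (0.0641), median-ratio scaling (0.101) or quantile normalization (0.0555).

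Cyp7b1, the second enzyme of the alternative branch, was the member that followed the diet. Its values were 64.8, 45.8 and 47.0 TPM in HFD-IRI livers and 88.7, 48.3 and 106 TPM in HFD-Sham livers. They were 133, 185 and 250 TPM in ND-IRI livers and 200, 170 and 168 TPM in ND-Sham livers. The operations overlapped on each diet, and every HFD sample was below every ND sample. In HFD-IRI against ND-IRI the log2 fold change was -1.80 (SE 0.280, adjusted p = 0.00385), and in HFD-Sham against ND-Sham it was -1.21 (SE 0.280, adjusted p = 0.0277). The sham call was lost without the first or the second HFD-Sham sample or without any ND-Sham sample (estimates -0.88 to -1.31, adjusted p up to 0.102), with no filter (0.0662) and with only the compared groups in the fit (0.0649). After IRI its log2 fold change was -0.56 (adjusted p = 0.122) on HFD, called without the second HFD-Sham sample (adjusted p = 0.0142), and 0.03 (adjusted p = 0.928) on ND, where median-ratio scaling gave -0.18.

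Set against each other, Cyp7a1 and Cyp7b1 describe the entry enzyme of the classic branch over the second enzyme of the alternative branch. This ratio averaged 0.313 ± 0.117 in HFD-IRI and 1.01 ± 0.578 in HFD-Sham livers (SD, n = 3 each), and the groups overlapped. It averaged 0.0236 ± 0.00756 in ND-IRI and 0.503 ± 0.0548 in ND-Sham livers (SD, n = 3 each), far apart. No ND-IRI sample came near a sample of another group, the closest being an HFD-IRI sample at 0.185 against 0.0313 in the highest ND-IRI sample. These ratios carry no test.

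**Figure D3:**
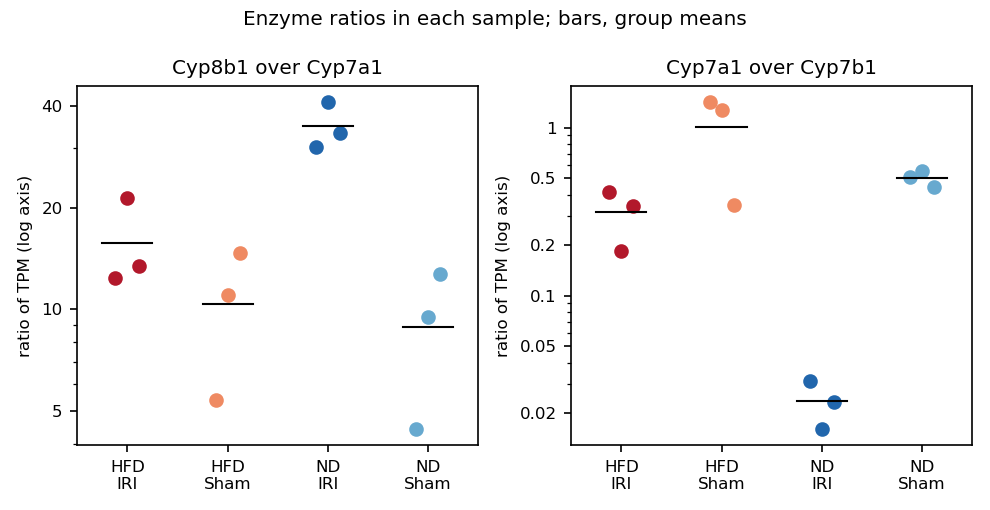
Ratios of TPM within each sample (points) with the group mean (bars), on log axes. ND-IRI stands apart in both panels, at 30.3 to 41.0 for Cyp8b1 over Cyp7a1 and at 0.0162 to 0.0313 for Cyp7a1 over Cyp7b1.

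Akr1d1, the reductase that saturates the sterol ring, fell after IRI on both diets. It was at 115, 85.7 and 116 TPM in HFD-IRI livers, against 216, 186 and 174 TPM in HFD-Sham livers. It was at 76.7, 57.5 and 64.2 TPM in ND-IRI livers, against 166, 249 and 191 TPM in ND-Sham livers. The IRI samples were all below the sham samples, and the HFD-IRI samples were above those of ND-IRI, while the sham groups overlapped. The log2 fold change was -0.86 (SE 0.175, adjusted p = 0.00196) on HFD and -1.59 (SE 0.175, adjusted p = 3.15e-05) on ND. HFD-IRI against ND-IRI gave 0.66 with an adjusted p of 0.0602, which passed without the second HFD-IRI sample (0.0466), the first ND-IRI sample (0.0417) or the first or second ND-Sham sample (0.0496 and 0.0432).

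Hsd3b7, the dehydrogenase of the ring, was the lowest member in sham livers. Its values were 13.02, 9.82 and 9.72 TPM in HFD-IRI livers, against 20.1, 16.3 and 15.97 TPM in HFD-Sham livers. They were 9.76, 12.7 and 13.9 TPM in ND-IRI livers, against 15.9, 8.70 and 10.8 TPM in ND-Sham livers. Every HFD-Sham sample was above the samples of the other groups, narrowly so against the first ND-Sham sample, and the other groups overlapped with each other. The log2 fold change was -0.64 (SE 0.211, adjusted p = 0.0261) in HFD-IRI against HFD-Sham and 0.06 (adjusted p = 0.836) in ND-IRI against ND-Sham, where median-ratio scaling gave -0.14 and quantile normalization -0.24. The HFD call was lost without the second or the third HFD-IRI sample or the first HFD-Sham sample, with an adjusted p of up to 0.0976. Its exons overlap the opposite-strand gene 9430064I24Rik in the GENCODE annotation, and the use of strand in the counting was not given in the sources used here, so reads of this pair may not have been told apart.

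Baat, which conjugates bile acids, was lower in HFD-IRI livers, at 233, 257 and 213 TPM, against 404, 434 and 417 TPM in HFD-Sham livers. It was at 233, 502 and 347 TPM in ND-IRI livers, against 362, 417 and 445 TPM in ND-Sham livers. The HFD groups did not overlap, and the ND-IRI samples spread on both sides of the ND-Sham samples. This gave a log2 fold change of -0.84 (SE 0.213, adjusted p = 0.00721) on HFD and -0.24 (SE 0.213, adjusted p = 0.374) on ND. The ND value rested on single samples: it was 0.04 without the first ND-IRI sample and -0.51 (adjusted p = 0.0320) without the second.

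Nr1h4, the bile acid receptor FXR, fell to about the same level on both diets. It was at 63.2, 38.4 and 80.5 TPM in HFD-IRI livers, against 206, 237 and 212 TPM in HFD-Sham livers. It was at 68.0, 41.8 and 50.7 TPM in ND-IRI livers, against 198, 262 and 205 TPM in ND-Sham livers. The operations were far apart and the diets overlapped within each. The log2 fold change was -1.89 (SE 0.242, adjusted p = 9.52e-05) on HFD and -2.05 (SE 0.242, adjusted p = 4.86e-05) on ND. The difference between these effects was 0.16, with a 95% interval from -0.59 to 0.90.

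Nr0b2, the co-repressor SHP, was called lower after IRI on the high-fat diet. Its values were 19.8, 14.9 and 32.0 TPM in HFD-IRI livers, against 61.2, 39.3 and 37.8 TPM in HFD-Sham livers. They were 21.9, 40.9 and 25.8 TPM in ND-IRI livers, against 43.7, 22.8 and 36.0 TPM in ND-Sham livers. The HFD groups did not overlap and the ND groups did. The log2 fold change was -1.05 (SE 0.320, adjusted p = 0.0184) on HFD and -0.21 (SE 0.320, adjusted p = 0.623) on ND, and the ND value was 0.17 without the 2 samples that stood apart. The HFD call was lost without the first or second HFD-IRI sample or the first HFD-Sham sample, with an adjusted p of up to 0.0805.

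Between sham livers, few members were called by diet, and a member without a call is not shown to be unmoved. For Cyp7a1, for example, the 95% interval ran from -1.38 to 0.49. In HFD-Sham against ND-Sham, Cyp7b1 alone was called, so that 1 of 9 members was lower, where 1.20% of tested genes were, and 0 were higher, where 4.63% were. An unadjusted p under 0.05 was found for 3 members and for 21.2% of tested genes. Without the 2 samples that stood apart, Hsd3b7 was called higher (adjusted p = 0.0201) beside the lower Cyp7b1, where 1522 genes were called higher and 208 lower. With all samples the calls over all genes were 619 higher and 161 lower, against 278 and 215 after median-ratio scaling and 329 and 250 after quantile normalization. Hsd3b7 was above ND-Sham in every HFD-Sham sample, with a log2 fold change of 0.56 (SE 0.211, adjusted p = 0.151), and it was called without the first ND-Sham sample (adjusted p = 0.0369). Nr1h4 had a log2 fold change of -0.01, with a 95% interval from -0.54 to 0.51.

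Between IRI livers, Cyp7b1 was again the 1 member called lower in HFD-IRI against ND-IRI, where 1.48% of tested genes were, and 0 were called higher, where 2.38% were. An unadjusted p under 0.05 was found for 5 members and for 15.4% of tested genes. Without the 2 samples that stood apart, Akr1d1 was called higher (adjusted p = 0.0289) and Baat lower (adjusted p = 0.0132) beside Cyp7b1. Over all genes 382 were then called higher and 357 lower, against 318 and 198 with all samples. Cyp7a1 and Akr1d1 were higher in HFD-IRI without overlap but were not called, as given above. For Cyp7a1 the adjusted p ranged from 0.0281 to 0.208 over the alternatives, and the settings under which it passed included a pseudocount of 0.1 (0.0442), a filter at 5 TPM (0.0495), and leaving out the second HFD-IRI, the first HFD-Sham or the third HFD-Sham sample. Baat had a log2 fold change of -0.55 (adjusted p = 0.219) and was called lower without the first ND-IRI sample (-0.83, adjusted p = 0.0134).

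Whether IRI acted differently on the 2 diets was tested directly, as the IRI effect on HFD minus that on ND. limma called 0 of the 9 members, where 0.0449% of tested genes were called higher and 0.0524% lower, and an unadjusted p under 0.05 was found for 4 members and for 10.1% of tested genes. The difference was 2.11 for Cyp7a1 (95% interval 0.78 to 3.43, adjusted p = 0.208) and 0.72 for Akr1d1 (0.18 to 1.26, adjusted p = 0.311). It was 0.91 for Cyp8b1 (0.01 to 1.82, adjusted p = 0.493) and -0.70 for Hsd3b7 (-1.35 to -0.05, adjusted p = 0.453). For these 4 genes the unadjusted intervals lay on 1 side of 0. For Baat the difference was -0.60 (-1.25 to 0.06), for Nr0b2 -0.85 (-1.83 to 0.14) and for Cyp7b1 -0.59 (-1.45 to 0.27). Without the 2 samples that stood apart limma again called 0 members, where it called 66 genes higher and 269 lower. Some members then lay near the threshold, namely Hsd3b7 (-1.06, adjusted p = 0.0501), Akr1d1 (0.97, adjusted p = 0.0626) and Baat (-0.79, adjusted p = 0.0761). A call on Hsd3b7, Baat or Nr0b2 on HFD and none on ND was therefore not shown to be a difference between diets.

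The remaining enzymes and carriers of the pathway also fell for the most part after IRI. Of 16 tested genes, 11 were lower and 2 higher in HFD-IRI against HFD-Sham, where 21.9% and 24.0% of all tested genes were. In ND-IRI against ND-Sham 12 were lower and 3 higher, where 16.6% and 30.2% were. The list medians were -0.60 on HFD and -0.56 on ND. The lower gene with the smallest adjusted p was Amacr, the racemase of side-chain shortening, at 46.9 ± 7.24 TPM in HFD-IRI and 156 ± 8.67 TPM in HFD-Sham livers (SD, n = 3 each; log2 fold change -1.73, adjusted p = 2.82e-06). On ND it was at 60.1 ± 3.06 TPM in ND-IRI and 151 ± 14.2 TPM in ND-Sham livers (-1.32, adjusted p = 1.3e-05). Ch25h, which makes an oxysterol outside the main branches and is known as an interferon-induced gene of immune cells, went the other way. It was at 56.6, 47.9 and 35.0 TPM in HFD-IRI livers, against 1.07, 1.28 and 0.45 TPM in HFD-Sham livers. It was at 27.0, 24.8 and 22.0 TPM in ND-IRI livers, against 0.55, 0.66 and 0.31 TPM in ND-Sham livers. Its log2 fold change was 4.62 (adjusted p = 2.24e-07) on HFD and 4.09 (adjusted p = 4.0e-07) on ND.

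Cyp2c70, which makes muricholic acid in the mouse, rose after IRI. It was at 140, 202 and 204 TPM in HFD-IRI livers, against 101, 124 and 102 TPM in HFD-Sham livers. It was at 606, 673 and 753 TPM in ND-IRI livers, against 143, 189 and 112 TPM in ND-Sham livers. ND-IRI was thus far above the other groups, and HFD-IRI against ND-IRI gave a log2 fold change of -1.90 (adjusted p = 0.000247). Members of the Cyp2c family are alike in sequence and can share reads, which makes this value uncertain. Between diets, 3 genes of this list were higher and 0 lower in HFD-Sham against ND-Sham, where 4.63% and 1.20% of tested genes were. They were led by the peroxisomal enzyme Hsd17b4 at 0.46 (adjusted p = 0.0308), and 7 of the list had an unadjusted p under 0.05. In HFD-IRI against ND-IRI, 3 were higher and 1 lower, where 2.38% and 1.48% of tested genes were. The higher ones were led by the acyl-CoA synthetase Slc27a2 at 0.63 (adjusted p = 0.0160).

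**Figure D4:**
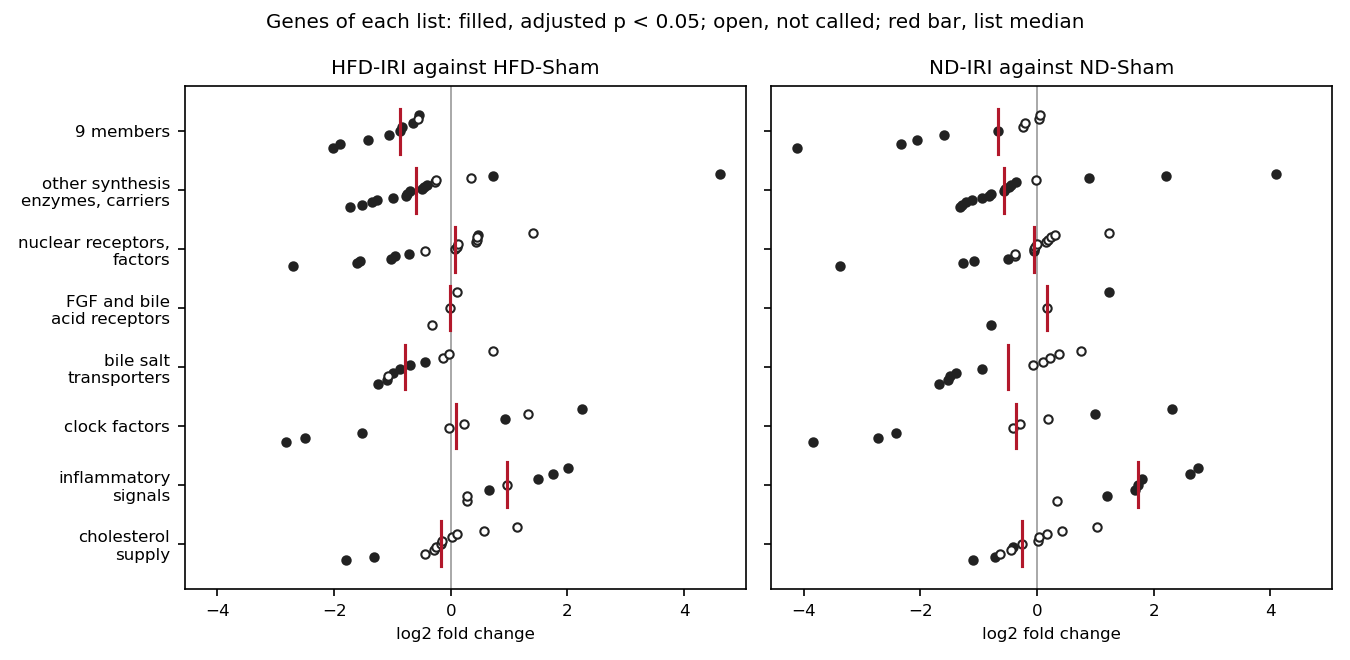
limma log2 fold changes of the 9 members and of the genes tested in 7 related lists (points), with each list's median (red bars), for IRI against sham on HFD (left) and ND (right); filled points had an adjusted p under 0.05. Most called synthesis genes and all called transporters lie left of 0, and all called inflammatory signals lie right of it.

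Among nuclear receptors and factors known to act on bile acid genes, 15 of 16 were tested, Vdr being too low. Of these, 6 were lower and 1 higher in HFD-IRI against HFD-Sham, where 21.9% and 24.0% of all tested genes were. In ND-IRI against ND-Sham 4 were lower and 0 higher (4 with an unadjusted p under 0.05), where 16.6% and 30.2% were. Nr1i3, the xenobiotic receptor CAR, was at 12.8 ± 4.46 TPM in HFD-IRI and 88.2 ± 26.1 TPM in HFD-Sham livers (SD, n = 3 each; -2.70, adjusted p = 2.3e-05). On ND it was at 6.08 ± 2.16 TPM in ND-IRI and 71.2 ± 12.4 TPM in ND-Sham livers (-3.38, adjusted p = 5.21e-06). Nr5a2, the activator LRH-1, was higher in HFD-IRI at 39.96 ± 6.63 TPM, against 28.6 ± 2.86 TPM in HFD-Sham livers (0.46, adjusted p = 0.0294). Neither diet comparison had a call in this list, with 1 gene in HFD-Sham against ND-Sham and 4 in HFD-IRI against ND-IRI at an unadjusted p under 0.05.

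Of the liver-cell receptors for FGF and bile acids, 3 of 4 were tested, since Gpbar1 was at or near 0. On ND, S1pr2 was higher after IRI at 4.14 ± 0.485 TPM, against 1.22 ± 0.537 TPM in ND-Sham livers (1.23, adjusted p = 0.00219). Klb, the co-receptor for the gut hormone FGF15, was lower at 15.3 ± 7.03 TPM, against 26.2 ± 5.69 TPM in ND-Sham livers (-0.79, adjusted p = 0.0245), with overlapping samples. On HFD, limma called 0 of the 3, and 0 had an unadjusted p under 0.05.

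Bile salt transporters, of which 10 of 11 were tested (Slc51a was too low), had no call upward after IRI when all samples were used. Without the 2 samples that stood apart, 1 was called higher on ND. In HFD-IRI against HFD-Sham 6 of 10 were lower, where 21.9% of all tested genes were. In ND-IRI against ND-Sham 5 of 10 were lower, where 16.6% were. The list medians were -0.78 on HFD and -0.50 on ND. Abcc2, an export pump of the canalicular membrane, was at 134 ± 14.0 TPM in HFD-IRI and 321 ± 49.3 TPM in HFD-Sham livers (SD, n = 3 each; -1.25, adjusted p = 5.81e-05). Slco1b2, an uptake carrier, was at 172 ± 43.7 TPM in ND-IRI and 545 ± 27.1 TPM in ND-Sham livers (-1.69, adjusted p = 1.24e-05). Between diets, the uptake carrier Slco1a1 was, like Cyp7b1, lower on HFD, with samples at 15.9, 4.86 and 4.30 TPM in HFD-IRI livers, against 141, 88.2 and 113 TPM in ND-IRI livers. In sham livers it was at 24.8, 5.19 and 29.8 TPM in HFD-Sham, against 121, 104 and 89.7 TPM in ND-Sham. These were log2 fold changes of -3.81 (adjusted p = 0.00253) between IRI livers and -2.63 (adjusted p = 0.0169) between sham livers. Higher on HFD were the basolateral pump Abcc3 in sham livers, at 306 ± 9.57 TPM in HFD-Sham and 208 ± 19.8 TPM in ND-Sham (0.56, adjusted p = 0.0115), and Slco1b2 in IRI livers (1.09, adjusted p = 0.00273). In all, 1 transporter was higher and 1 lower between sham livers, where 4.63% and 1.20% of tested genes were. Between IRI livers 3 were higher and 1 lower, where 2.38% and 1.48% were.

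Among 8 clock factors, 2 rose and 3 fell after IRI on each diet, where 24.0% of tested genes rose and 21.9% fell on HFD, and 30.2% rose and 16.6% fell on ND. Hlf, an activator of the same class as the Cyp7a1 regulator Dbp, was at 4.37 ± 1.23 TPM in HFD-IRI and 36.6 ± 6.25 TPM in HFD-Sham livers (SD, n = 3 each; -2.82, adjusted p = 2.06e-06). On ND it was at 3.23 ± 0.274 TPM in ND-IRI and 27.3 ± 4.15 TPM in ND-Sham livers (-2.73, adjusted p = 1.95e-06). Nfil3, a repressor at the same DNA elements, was at 127 ± 37.4 TPM in HFD-IRI and 25.1 ± 1.32 TPM in HFD-Sham livers (2.25, adjusted p = 0.000187). On ND it was at 169 ± 44.8 TPM in ND-IRI and 35.4 ± 16.4 TPM in ND-Sham livers (2.31, adjusted p = 0.000138). The clock hour of sampling was not given in the labels, and its part in these values was not tested.

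Of inflammatory and related signals known to lower Cyp7a1, 4 of 7 were higher in HFD-IRI against HFD-Sham, where 24.0% of tested genes were. In ND-IRI against ND-Sham 6 of 7 were higher, where 30.2% of tested genes were, and 0 were lower on either diet. Hgf, the hepatocyte growth factor, had the smallest adjusted p in both. It was at 15.0 ± 0.835 TPM in HFD-IRI and 4.71 ± 0.804 TPM in HFD-Sham livers (SD, n = 3 each; log2 fold change 1.498, adjusted p = 0.000102). It was at 9.05 ± 2.15 TPM in ND-IRI and 2.01 ± 0.515 TPM in ND-Sham livers (1.73, adjusted p = 3.34e-05). Hgf was also the 1 gene of the list called between sham livers, at 0.93 (adjusted p = 0.0169) in HFD-Sham against ND-Sham. The part of these signals in the members' values was not tested.

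Of 11 genes of cholesterol supply, 2 fell on HFD and 3 on ND, and 0 rose. The falls are near the background of all tested genes (21.9% on HFD and 16.6% on ND), and they included the sterol export pair Abcg5 and Abcg8. Abcg5 was at 58.2 ± 7.56 TPM in HFD-IRI and 147 ± 14.3 TPM in HFD-Sham livers (SD, n = 3 each; -1.32, adjusted p = 0.000108). Abcg8 was at 43.4 ± 17.5 TPM in ND-IRI and 89.8 ± 8.14 TPM in ND-Sham livers (-1.10, adjusted p = 0.00266). Apoe, a lipoprotein component, was higher in HFD-IRI, at 25244 ± 2446 TPM, against 16677 ± 914 TPM in ND-IRI livers (0.60, adjusted p = 0.0206). In the difference between the IRI effects limma called 0 genes in each of the 7 lists, with 1 to 3 genes per list at an unadjusted p under 0.05.

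Some list counts changed without the 2 ND samples that stood apart. In ND-IRI against ND-Sham, nuclear receptors and factors then had 2 genes lower and 1 higher, and clock factors 4 lower and 1 higher. Cholesterol supply had 4 lower, receptors for FGF and bile acids 1 lower and 2 higher, and bile salt transporters 5 lower and 1 higher. In HFD-Sham against ND-Sham, S1pr2 (0.98, adjusted p = 0.0422) and Slco1b2 (0.53, adjusted p = 0.0322) were then called higher, and Klb (-0.84, adjusted p = 0.0155) and Nfil3 (-0.77, adjusted p = 0.0390) lower. In HFD-IRI against ND-IRI, 4 clock factors and 2 nuclear receptors were then called higher, among them Nr1i3 (1.19, adjusted p = 0.0381) and Nr5a2 (0.68, adjusted p = 0.0404). In the same comparison 1 gene was called lower in each of 3 lists, where 0 were with all samples. These lists were nuclear receptors and factors, receptors for FGF and bile acids, and inflammatory signals. Ch25h was no longer called there (adjusted p = 0.0519). In the difference between the IRI effects, Cyp2c70 (-1.56, adjusted p = 0.0413) and Slc27a2 (0.72, adjusted p = 0.0493) were then called, and so was 1 gene of the nuclear receptors and factors, lower.

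Hepatocyte markers, of which 6 of 7 listed symbols were found, were abundant in every sample, as the label liver implies. Their summed level was 93756 to 101539 TPM in HFD-IRI livers, against 90488 to 103362 TPM in HFD-Sham livers. It was 92910 to 118392 TPM in ND-IRI livers, against 95428 to 113290 TPM in ND-Sham livers. The sums overlapped between operations, while 1 marker was higher and 2 lower on HFD, and 1 was higher and 3 lower on ND. Alb was the largest part of each sum, at 62006 to 87107 TPM over the samples, so the overlap describes mainly Alb. On ND, Apoa1 was at 10284 to 12847 TPM after IRI, against 16660 to 17877 TPM in ND-Sham livers. Fgb went the other way, at 8095 to 11280 TPM in ND-IRI, against 2222 to 2876 TPM in ND-Sham livers.

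Most markers of the hepatocytes around the central vein, where Cyp7a1 is known to be expressed most, were lower after IRI, as was Cyp7a1. In HFD-IRI against HFD-Sham 6 of 8 were lower, where 21.9% of all tested genes were. In ND-IRI against ND-Sham 7 of 8 were lower, where 16.6% were, or 4 of 8 without the 2 samples that stood apart. Their summed level was 10530 to 12635 TPM in HFD-IRI livers, against 15933 to 21244 TPM in HFD-Sham livers. It was 3951 to 4753 TPM in ND-IRI livers, against 15293 to 18132 TPM in ND-Sham livers. As for Cyp7a1, the lowest sums were those of ND-IRI. Cyp2e1 was the largest part of each sum, at 2164 to 2719 TPM in ND-IRI and 7723 to 9682 TPM in HFD-IRI livers. Between IRI livers, 3 of these markers were called higher in HFD-IRI and 0 lower, where 2.38% and 1.48% of tested genes were. Cyp1a2 lay the other way without overlap, at 129 to 188 TPM in HFD-IRI, against 208 to 334 TPM in ND-IRI livers. It was not called (limma log2 fold change -0.76, adjusted p = 0.172). Markers of the hepatocytes around the portal vein also fell, 3 of 7 lower and 1 higher on HFD and 5 of 7 lower on ND. In HFD-Sham against ND-Sham 5 of 7 were lower, where 1.20% of tested genes were. In HFD-IRI against ND-IRI 3 of 7 were lower and 0 higher, where 1.48% and 2.38% of tested genes were. The part of these markers in the members' values was not tested.

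Markers of other cells moved with IRI too, where 24.0% of all tested genes rose and 21.9% fell on HFD, and 30.2% rose and 16.6% fell on ND. All 6 neutrophil markers rose on both diets, summing to 184 to 499 TPM in HFD-IRI, against 6.65 to 15.4 TPM in HFD-Sham livers. They summed to 225 to 613 TPM in ND-IRI, against 18.7 to 20.9 TPM in ND-Sham livers. Of 5 tested cholangiocyte markers 4 rose on each diet and 1 fell on HFD, with sums of 39.8 to 68.6 TPM in HFD-IRI, against 16.5 to 27.2 TPM in HFD-Sham livers, and of 49.9 to 72.9 TPM in ND-IRI, against 13.8 to 29.2 TPM in ND-Sham livers. These sets did not overlap between operations. Red blood cell markers rose for 4 of 5 genes on HFD, summing to 655 to 2299 TPM in HFD-IRI, against 73.9 to 123 TPM in HFD-Sham livers. On ND they rose for 5 of 5 genes, summing to 491 to 1554 TPM in ND-IRI, against 97.6 to 129 TPM in ND-Sham livers. Of 8 macrophage markers, 1 rose and 4 fell on HFD (sums of 177 to 299 TPM in HFD-IRI, against 230 to 378 TPM in HFD-Sham livers), and 1 rose and 3 fell on ND, or 1 and 1 without the 2 samples that stood apart (sums of 133 to 225 TPM in ND-IRI, against 204 to 235 TPM in ND-Sham livers). The macrophage sums overlapped on both diets. Of the adipocyte markers 2 of 5 were tested, and 1 rose on each diet. Their part in the members' values was not tested.

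The enterohepatic side of the system was represented by a short list of ileal genes. Fabp6 was at 0 in all 12 samples, and Fgf15, the gut signal that lowers Cyp7a1, did not exceed 0.04 TPM. Slc10a2, a bile salt uptake carrier of the ileum that is also known from cholangiocytes, was named after its values were seen. It was at 61.2 ± 11.9 TPM in HFD-IRI and 17.1 ± 4.78 TPM in HFD-Sham livers (SD, n = 3 each; 1.79, adjusted p = 5.26e-05). On ND it was at 78.5 ± 12.5 TPM in ND-IRI and 9.90 ± 1.08 TPM in ND-Sham livers (2.86, adjusted p = 2.47e-06).

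Genes with a pattern like that of a member were ranked by the mean absolute difference, over the 12 samples, between log2(TPM + 1) values centred on each gene's own mean, among 9203 genes with a group mean of at least 5 TPM. For Cyp7a1 the nearest were Nr1i3 at 0.44, Hlf at 0.62 and Cyp4a32 at 0.62, a member of a family that can share reads, where the median candidate was at 1.61. For Cyp8b1 they were Cpsf4l, Pbld1 and Gstt2 (0.31 to 0.32, median 1.01), and for Nr1h4 they were Acsm5, the glucose transporter Slc2a2 and Phka2 (0.17 to 0.19, median 1.05). Akr1d1 lay closest to Smim19 at 0.10, Dpys at 0.12 and the bile salt uptake carrier Slc10a1 at 0.14, with a median of 0.71. Cyp7b1 lay closest to Serpine2 at 0.27, Acmsd at 0.29 and the complement gene C8a at 0.30, with a median of 0.85. These 3 were picked for their likeness to Cyp7b1 in these same samples, so their lower group means on HFD follow from that choice. C8a, for example, was at 165 ± 41.2 TPM in HFD-IRI and 556 ± 49.8 TPM in ND-IRI livers (SD, n = 3 each). For the members that moved less, the nearest gene was Sdc2 for Cyp27a1 (0.10, median 0.51), Zfyve1 for Hsd3b7 (0.10, median 0.38), Pid1 for Baat (0.13, median 0.47) and Mapk15 for Nr0b2 (0.22, median 0.52).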

How the data were processed

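Per the labels' protocols, liver RNA was extracted with Trizol, selected for poly(A), made into stranded libraries and sequenced on a BGI platform. The deposited values were TPM per gene symbol and sample, made by the authors with mouse build GRCm39 (mm39), per the submitters' processing notes. The sources used here did not give the aligner, the counter, the annotation or whether strand was used. A table with 23 further sample columns was not used.

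After 2 blank entries were dropped, a model with a mean per group and a variance trend was fitted to log2(TPM + 1) with limma 3.58.1 in R 4.3.3. It covered the 13364 genes that reached 1 TPM in 3 or more samples. P-values were adjusted by Benjamini-Hochberg per contrast. The method was tested on simulated data. Members and lists were chosen with earlier results of these data known. Besides the members, the text names, for each list and contrast, the called gene with the smallest adjusted p in each direction and, for each member, the genes nearest in pattern (the first for Cyp27a1, Hsd3b7, Baat and Nr0b2, else 3). Hnf4a and some marker genes are also named, to qualify single statements. Alternatives changed the pseudocount (0.1), the filter (none, or 5 TPM), the scaling (median ratios, quantiles), the variance trend (none), the block (replicate number) and the samples (the compared groups alone, each sample left out, and the first samples of ND-Sham and ND-IRI left out together). Figures used matplotlib 3.10.9 in Python 3.11.15.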

Additional observations from a re-analysis of the deposited data

Results flagged for a closer look

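Cyp2e1, a pericentral hepatocyte enzyme used here as a marker, differed between diets in its response to IRI by the test of that difference. Its level was 8823 ± 1001 TPM in HFD-IRI and 14174 ± 2422 TPM in HFD-Sham livers, and 2471 ± 282 TPM in ND-IRI and 11633 ± 688 TPM in ND-Sham livers (SD, n = 3 each). The IRI effect was -0.68 on HFD and -2.24 on ND on the log2 scale, a difference of 1.56 (limma, adjusted p = 0.0219), and it was 1.59 (adjusted p = 0.0228) without the first samples of both ND groups. No other marker gene and none of the 9 members met this test, with all samples or without those of both ND groups. Genes of the 7 lists did not meet it with all samples. Without those samples Cyp2c70, Slc27a2 and 1 gene of the nuclear receptors and factors did. The part of Cyp2e1 in the members' values was not tested.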

How the results depend on the processing

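Of 936 recomputed values of the members, 876 kept their direction and their side of the threshold. Of the 15 called results, 11 kept their call under every alternative run and none turned sign; 20 recomputed values of the other 4 lost it (Cyp27a1, Hsd3b7 and Nr0b2 in HFD-IRI against HFD-Sham, and Cyp7b1 in HFD-Sham against ND-Sham). The cause was not tested. In HFD-IRI against HFD-Sham, 5 to 9 members were called when samples were left out. In HFD-Sham against ND-Sham it was 0 to 2, and 0 with no filter or with only the compared groups. In HFD-IRI against ND-IRI it was 1 to 3, and 2 with a pseudocount of 0.1, a filter at 5 TPM or the replicate block. Over all genes, 248 to 1730 were called in HFD-Sham against ND-Sham when samples were left out, where all samples gave 780. Median-ratio scaling gave 493 and the compared groups alone 367. In HFD-IRI against ND-IRI, 516 genes became 240 to 739 when samples were left out and 304 with the compared groups alone. In the difference between the IRI effects, 13 genes became 2 to 335 when samples were left out (335 without sample 1 of both ND groups), 25 with a pseudocount of 0.1, and 21 with no filter or with quantile normalization. Fewer samples entered each of these left-out fits.

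Estimates that turned sign belonged to results that were not called. In ND-IRI against ND-Sham, median-ratio scaling gave -0.18 for Cyp7b1 and -0.14 for Hsd3b7, and quantile normalization gave -0.24 for Hsd3b7. In HFD-Sham against ND-Sham, Baat was at -0.16 and -0.0025 under these scalings. With samples left out, the ranges in ND-IRI against ND-Sham were -0.19 to 0.35 for Cyp7b1, -0.12 to 0.42 for Hsd3b7, -0.51 to 0.038 for Baat and -0.46 to 0.17 for Nr0b2. In HFD-Sham against ND-Sham they were -0.19 to 0.10 for Akr1d1, -0.042 to 0.11 for Baat and -0.088 to 0.11 for Nr1h4. For Nr1h4 they were -0.086 to 0.44 in HFD-IRI against ND-IRI and -0.073 to 0.45 in the difference between the IRI effects.

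Replicate numbers were shared between groups. The correlation of same-numbered samples' deviations ranged from -0.188 to 0.418, and in no comparison did each of its 3 pairs exceed 0.1, so the numbers were not taken as pairs. With the replicate block, Cyp7a1 in HFD-IRI against ND-IRI had an adjusted p of 0.0358, and no other call of a member changed. Unknown depth limits what can be said of low genes.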
